A study of Homo sapiens with 4 samples.

Results

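The genes described here are 8 members of the chemokine system, taken by symbol from the 60651 genes in the deposited files. CCL2, CCL3 and CXCL8 encode secreted ligands, and CCR1, CCR2, CXCR2, CXCR4 and CCR7 encode receptors. Their ribosome footprints were compared in K562, THP-1, MOLM13 and HL60, established human leukemia lines with no treatment named in the labels, with 1 library per line. K562 comes from a chronic myeloid leukemia, THP-1 and MOLM13 from acute monocytic leukemias and HL60 from an acute myeloid leukemia with promyelocytic features. The protocol gives K562 and HL60 one medium (IMDM) and THP-1 and MOLM13 one each (RPMI1640 with 2-mercaptoethanol, and DMEM), so line and medium cannot be told apart in most pairs. Footprints were made from lysates with cycloheximide, and no matched RNA library was used here, so more messenger RNA and more ribosomes per messenger RNA cannot be told apart.

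Chemokines are small secreted proteins that direct the movement of leukocytes along a gradient. They bind receptors with 7 membrane-spanning segments, which signal through inhibitory G proteins to phosphoinositide kinases, Rac GTPases and the actin skeleton. Families are named for the spacing of the first cysteines: adjacent in CC ligands, separated by another residue in CXC ligands. CCL2 attracts monocytes through CCR2, CCL3 acts through CCR1, and CXCL8 (interleukin-8) attracts neutrophils through CXCR1 and CXCR2. CXCR4 binds CXCL12 and holds blood progenitors in the marrow, and CCR7 directs lymphocytes and dendritic cells to lymph nodes.

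The coding stretches below show the features that define the members, read 5′ to 3′ from GENCODE release 29 transcripts on GRCh38. In the ligands the capitals mark the first pair of cysteine codons (TGC or TGT), found in frame by a script. The stretch of CCL2 lies at chr17:34256233-34256274 (plus strand), that of CCL3 at chr17:36089245-36089286 (minus strand) and that of CXCL8 at chr4:73741565-73741609 (plus strand), each within 1 exon. The pair is adjacent in CCL2 and CCL3, and another codon stands between them in CXCL8.
CCL2: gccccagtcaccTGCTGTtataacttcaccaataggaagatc
CCL3: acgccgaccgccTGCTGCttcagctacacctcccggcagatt
CXCL8: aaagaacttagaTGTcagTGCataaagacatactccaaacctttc

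In the 4 receptor stretches the capitals mark the codons of the Asp-Arg-Tyr motif, which lies on the inner side of the membrane and takes part in G protein coupling. These stretches lie at chr3:46203894-46203938 (CCR1, minus strand), chr2:218135216-218135260 (CXCR2, plus strand), chr2:136115499-136115543 (CXCR4, minus strand) and chr17:40555390-40555434 (CCR7, minus strand). Codons for Asp-Arg-Tyr occur 1 time in frame in 4 of the receptors and 2 times in CXCR4, of which the first is shown. The search matched codons and not their place in the protein, so the second match in CXCR4 is not counted as the motif. The motif lies in the large last exon of the main transcript of all 5 genes.
CCR1: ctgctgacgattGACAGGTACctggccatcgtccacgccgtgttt
CXCR2: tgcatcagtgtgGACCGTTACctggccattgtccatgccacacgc
CXCR4: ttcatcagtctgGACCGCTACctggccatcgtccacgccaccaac
CCR7: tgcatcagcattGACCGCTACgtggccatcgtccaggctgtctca

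The libraries held 344 to 973 aligned megabases, and HL60 was the deepest and the MOLM13-labelled library the least deep. Levels are given as scaled TPM, the authors' deposited TPM (transcript abundance per length, relative to the library) summed per gene and divided by a factor per library, which is a level per length. Depth is given as footprint equivalents, aligned bases divided by the modal fragment length of 29 bases, and the 95% intervals from them are exact Poisson intervals that cover counting error only. The size rule works on log2(scaled TPM + 1): high in a line means at least 2 above all others with at least 600 aligned bases there, and low means the same distance below all others, with those bases in each of them. A pair of libraries is called apart by the same distance. No p-value is given, because a line with 1 library has no replicate check. Of 84 genes taken by a cytosolic ribosomal protein symbol, a set that can include paralogs not used by every cell, 3 to 7 were listed at 0 in each library. How often a gene in use is listed at 0 is therefore not known, and a gene at 0 is reported only as listed at 0.

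Marker genes were checked against the 4 labels. All 7 erythroid markers were high in K562. The 8 monocyte markers summed to 4261 in THP-1 and 1595 in HL60, against 34.1 in the MOLM13-labelled library and 44.6 in K562. Primary granule markers summed to 8243 and 9249 in THP-1 and HL60, to 32.1 in the MOLM13-labelled library, and were all listed at 0 in K562. In the MOLM13-labelled library, FLT3 and MEIS1, which that line is known to express, were listed at 0, HOXA9 was at 29.5 and HOXA10 at 16.2. HOXA9 and HOXA10 were at 15.7 and 18.7 in THP-1, 2.61 and 1.65 in K562, and 3.05 and 2.49 in HL60. FLT3 and MEIS1 were low in all lines, at most 1.83 (THP-1) and 1.81 (K562), and MEIS1 was at 0.304 in THP-1. The T cell genes CD3D (891), CD3E (12.4) and CD247 (39.4) were high in the MOLM13-labelled library. Of the other T and NK cell markers, CD3G and CD8A were listed at 0 there, and NKG7 was at 23.5, against 42.0 in THP-1. In K562, CD3G was high at 3.65 and CD3D was at 49.0. The deposited file of the MOLM13 sample also carries another name than its label, so its library is called the MOLM13-labelled library. High and low calls in the other lines were repeated without it, a repeat chosen after seeing the data. With the scaling unchanged, leaving out a library can add such calls but cannot remove one, so a call that is kept is no check of it. B cell markers summed to at most 3.60, all of it CD79A in HL60, and of the fibroblast and endothelial markers only PECAM1, which myeloid cells also carry, was high in a line (129 in THP-1). The part of other cells in the results was not tested.

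CCL2 and CXCL8 were highest in HL60 and CCR2 in THP-1, while CXCR4, CXCR2 and CCR1 were higher in both of these lines than in the other libraries. The 3 ligands summed to a scaled TPM of 300.0 in HL60, against sums of 4.07 in THP-1, 7.28 in K562 and 7.74 in the MOLM13-labelled library. The 5 receptors summed to 301 in THP-1 and 222 in HL60, against 8.46 in K562 and 10.2 in the MOLM13-labelled library. THP-1 and HL60 were thus closer in their receptor sums than in their ligand sums, but the receptor sums were made up of different genes. CCR2 was at 139 and CXCR4 at 121 in THP-1, against 0.529 and 188 in HL60. At least 600 aligned bases were reached by 7 of the 8 members in THP-1, 6 in HL60 and 3 in each of the other libraries. In bulk libraries, fewer cells carrying a transcript and fewer footprints per cell cannot be told apart.

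**Figure D1:**
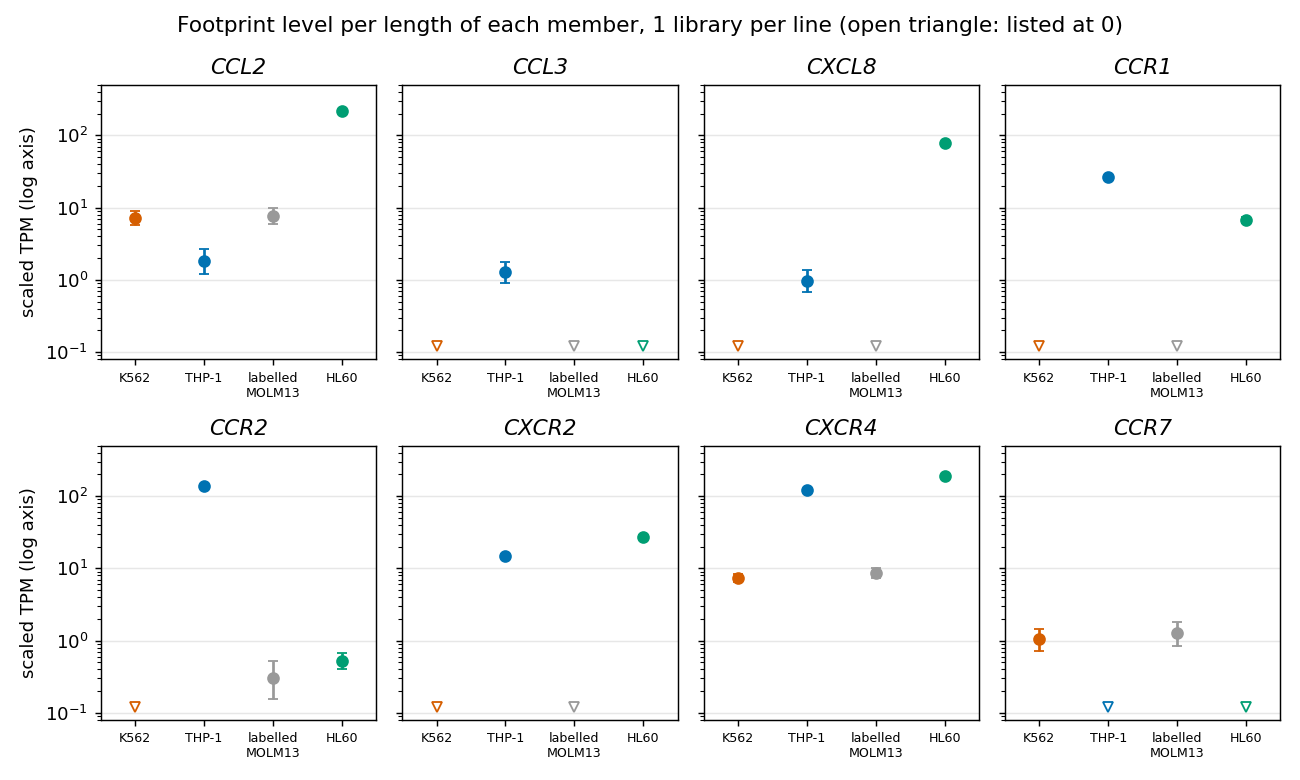
Scaled TPM (log axis) of each member in the 4 lines, 1 library each, with 95% Poisson intervals of counting error and open triangles at the bottom for genes listed at 0. CCL2 and CXCL8 stand at 221 and 79.4 in HL60, CCR2 at 139 in THP-1, and CXCR4 at 121 and 188 in THP-1 and HL60.

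CCL2, the monocyte attractant on chromosome 17 (34255218 to 34257203, plus strand, hg38), was at a scaled TPM of 221 in HL60, with a 95% interval of 215 to 227 from 5169 footprint equivalents. It was at 7.74 in the MOLM13-labelled library (5.98 to 9.86), 7.28 in K562 (5.83 to 8.98) and 1.82 in THP-1 (1.2 to 2.63). On this sum over transcripts, HL60 stood above every other library and THP-1 below every other one. The level in HL60 was 28.5-fold that of the MOLM13-labelled library (95% counting interval 22.3 to 36.4), 30.3-fold that of K562 (24.5 to 37.5) and 121-fold that of THP-1 (83.5 to 176). K562 and the MOLM13-labelled library did not differ beyond counting error, with a ratio of 1.06 (0.772 to 1.47). Among the protein-coding genes of HL60, CCL2 ranked 475 by scaled TPM, and in THP-1 it ranked 8989.

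CXCL8, the neutrophil attractant on chromosome 4 (73740541 to 73743716, plus strand), reached 79.4 in HL60 (76.7 to 82.1, 3340 footprint equivalents). It was at 0.974 in THP-1 (0.669 to 1.37), which rests on 32.5 footprint equivalents, and was listed at 0 in K562 and in the MOLM13-labelled library. The level in HL60 was 81.5-fold that of THP-1 (57.7 to 115). In HL60, 2 of the 6 tested members were high, CCL2 and CXCL8. By the same rule, 1.68% of the 10437 protein-coding genes with at least 600 aligned bases in HL60 were high there. The same 2 genes were called over THP-1, where 3.86% of genes were called. Without the MOLM13-labelled library both were also high in HL60 (2.49% of genes), as the rule requires.

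CCL3, a ligand of CCR1 on chromosome 17 (36088256 to 36090169, minus strand), was near the limit of detection. It was at 1.28 in THP-1 (0.907 to 1.75, 38.7 footprint equivalents) and listed at 0 in the other 3 libraries. All of its bases were assigned to ENST00000614051, a retained-intron transcript with no annotated coding bases, at a coverage of 2.21 on exon 2. CCL3L3, a near-identical copy, was at 0.961 in HL60 and 0.933 in THP-1 and listed at 0 in the others. How reads were divided between these copies is uncertain. Summed over both, the level was 2.21 in THP-1 and 0.961 in HL60. CCL3L1 was not analysed here. The files also list an antisense gene over CCL3, which was at 0 in every library, and no other member overlaps an exon of another gene.

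Footprint coverage of CXCL8 and CCL2 in HL60 lay mainly on coding exons. The main CXCL8 transcript has 4 exons, of which exons 2 and 3 are 100% coding and exon 4, with 1268 bases, is 1.03% coding. Mean coverage per base in HL60 was 183 reads on exon 1, 258 on exon 2, 149 on exon 3 and 4.94 on exon 4. The last exon thus had 1.91% of the highest exon's coverage, and 92.4% of the transcript's aligned bases lay before it. In CCL2, mean coverage in HL60 was 326 on exon 1 (53.9% coding), 506 on exon 2 (100% coding) and 83.0 on exon 3 (21.4% coding). The low THP-1 signal had the same order of exons in CCL2 (0.673, 3.30 and 0.232), and in CXCL8 exon 1 was slightly above exon 2 (2.65, 2.51, 1.02 and 0.0836).

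**Figure D2:**
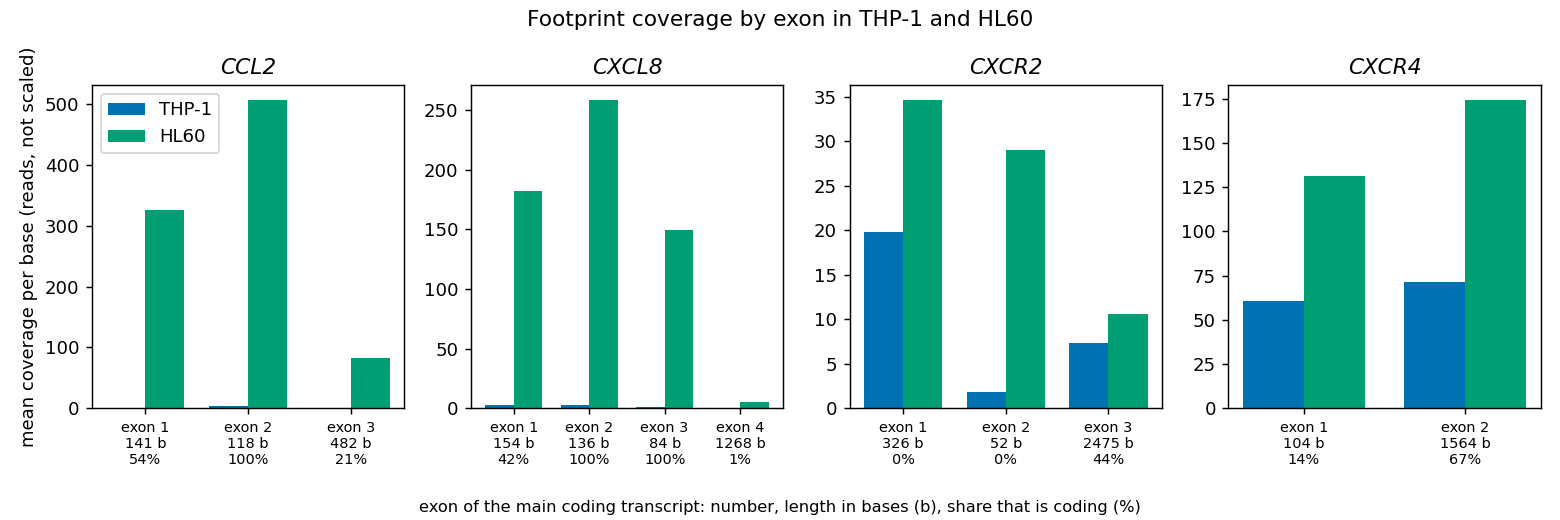
Mean coverage per base, not scaled between libraries, of each exon of the main coding transcript in THP-1 and HL60, with exon length in bases and the coding share in percent under each pair of bars. Coverage of CXCL8 in HL60 falls from 258 on exon 2 to 4.94 on the almost wholly untranslated exon 4.

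The shares of the CCL2 signal assigned to its annotated transcripts differed between libraries. In HL60, 97.2% of the aligned bases of CCL2 were assigned to ENST00000225831, the transcript of 99 codons, and in THP-1 74.2% were. In K562 and in the MOLM13-labelled library this transcript was listed at 0. There 66.1% and 90.4% of the bases were assigned to ENST00000580907, which has a reading frame of 65 codons and an extended exon 2. A further 32.0% and 9.12% were assigned to ENST00000624362, which spans exon 1 and the first intron. With fragments of about 29 bases, the division between overlapping transcripts is an estimate by StringTie. Both coding transcripts share exon 1 and the bases of exon 2, and the signal in K562 and the MOLM13-labelled library rests on 87.1 and 65.2 footprint equivalents. On ENST00000225831 alone, THP-1 (deposited TPM 1.39) stood above K562 and the MOLM13-labelled library. Its place below them thus holds for the sum over transcripts only.

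**Figure D3:**
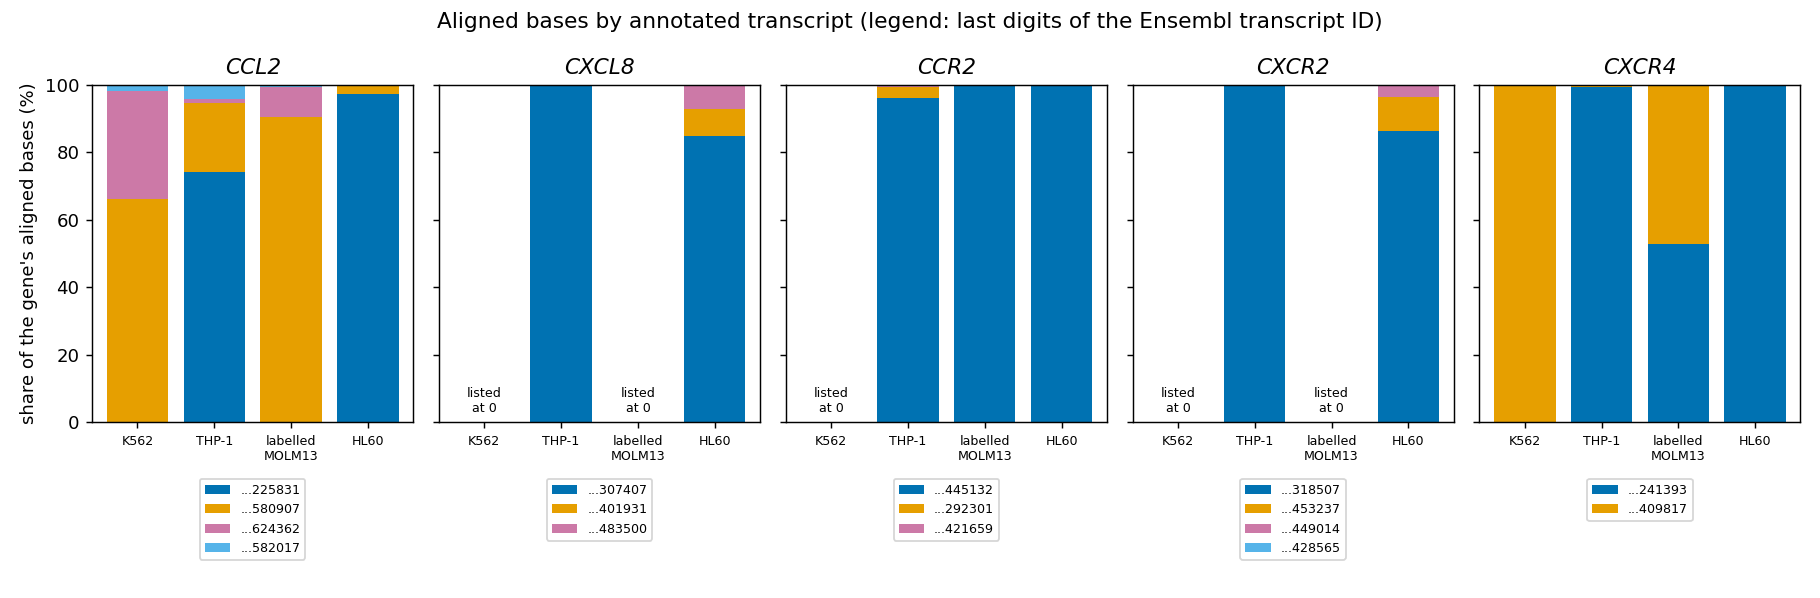
Share of each gene's aligned bases (%) assigned to its annotated transcripts in the 4 libraries, for the 5 members with signal on more than 1 transcript. Most bases of CCL2 and all of CXCR4 in K562 were assigned to other transcripts than the first one, which held 97.2% and 99.6% in HL60. The division between overlapping transcripts is an estimate.

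The promoter of CXCL8 is printed because inducible transcription of this gene is known to run through NF-kB and AP-1 sites close to its start. The RefSeq table holds an entry for 6 of the 8 members, and none for CCL2 and CCR7. The window spans 250 bases before to 50 after the start, at chr4:73740319-73740618 (plus strand, GRCh38.p14). Capitals mark matches to GGAATTTCC (NF-kB), TGANTCA (AP-1) and TATAAA, searched on both strands, at -91, -137 and -31 from the start. Of 35116 promoter windows of 300 bases, 0.461% held the first, 7.71% the second and 11.5% the third. Among the members with an entry, CXCL8 alone held GGAATTTCC, CCR2 and CXCL8 held TGANTCA, and CCL3, CXCL8 and CXCR4 held TATAAA. GGAATTTCC is a fixed string with no variable position, so other forms of an NF-kB site were not counted. That CXCL8 alone held it does not show that the other members lack such a site. A match describes letters and not binding, and the matches do not overlap each other.
CXCL8 promoter: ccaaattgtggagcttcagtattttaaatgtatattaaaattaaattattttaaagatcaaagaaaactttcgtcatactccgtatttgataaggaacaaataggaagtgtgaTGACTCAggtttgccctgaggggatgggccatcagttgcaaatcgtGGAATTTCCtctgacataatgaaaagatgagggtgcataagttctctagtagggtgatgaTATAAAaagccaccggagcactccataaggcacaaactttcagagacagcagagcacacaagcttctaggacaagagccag

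CCR2, the receptor of CCL2 on chromosome 3 (46353744 to 46360940, plus strand), reached 139 in THP-1 (137 to 142, 9647 footprint equivalents). It was at 0.529 in HL60 (0.403 to 0.683) and 0.300 in the MOLM13-labelled library (0.154 to 0.526), and listed at 0 in K562. THP-1 stood 263-fold above HL60 (204 to 340), and HL60 and the MOLM13-labelled library did not differ beyond counting error (1.76, 0.945 to 3.29). CCR2 ranked 793 among the protein-coding genes of THP-1 and was the only 1 of the 7 members tested there that was high, a call made for 3.64% of 10891 genes. The receptor and its ligand were thus highest in different lines: THP-1 held CCR2 at 139 and CCL2 at 1.82, and HL60 held CCR2 at 0.529 and CCL2 at 221.

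CCR2 has a pair of coding forms that share their first 313 codons and differ in the intracellular tail, CCR2A with 374 codons and CCR2B with 360. In THP-1, 96.2% of CCR2 bases were assigned to the CCR2B transcript ENST00000445132 and 3.36% to the CCR2A transcript ENST00000292301. Coverage of the last exon of the CCR2A transcript was 0.0449 per base in its own transcript, against 73.3 on the exon that holds the CCR2B coding region. That second exon of CCR2B spans the CCR2A exon, so shared bases are divided by estimate. The stretches are shown because this is where the forms part, with shared codons in lower case and form-specific codons in capitals. CCR2A runs from chr3:46358449-46359734 across an intron and CCR2B lies at chr3:46358449-46358526, both on the plus strand.
CCR2A: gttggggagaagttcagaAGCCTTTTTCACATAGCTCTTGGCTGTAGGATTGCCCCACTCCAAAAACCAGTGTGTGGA
CCR2B: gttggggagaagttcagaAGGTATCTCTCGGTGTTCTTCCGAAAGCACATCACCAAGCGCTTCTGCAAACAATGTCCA

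CXCR4, the receptor of CXCL12 on chromosome 2 (136114349 to 136118149, minus strand), was the only member with at least 600 aligned bases in all 4 libraries besides CCL2. It was at 188 in HL60 (184 to 191), 121 in THP-1 (117 to 125), 8.64 in the MOLM13-labelled library (7.39 to 10.0) and 7.41 in K562 (6.44 to 8.49). HL60 and THP-1 stood close together, with a ratio of 1.55 (1.5 to 1.61), and both stood far above the other libraries. The ratio of THP-1 to the MOLM13-labelled library was 14 (12 to 16.3) and to K562 16.3 (14.2 to 18.7). The MOLM13-labelled library and K562 did not differ beyond counting error (1.17, 0.952 to 1.43). CXCR4 ranked 561 in HL60 and 904 in THP-1.

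The spliced CXCR4 transcript ENST00000241393, with 352 codons over 2 exons, held 99.6% of CXCR4 bases in HL60 and 99.5% in THP-1. In K562 all bases were assigned to ENST00000409817, a single-exon transcript of 356 codons that starts in the intron, and the first exon of the spliced form was listed at 0. The MOLM13-labelled library was between these, with 52.7% on the spliced form and 47.3% on the single-exon form. Coverage of the spliced form's exons 1 and 2, not scaled between libraries, was 131 and 174 in HL60, 60.6 and 71.5 in THP-1 and 0.144 and 1.66 in the MOLM13-labelled library. The depth behind the K562 assignment was 208 footprint equivalents. The single-exon transcript spans all of exon 2 of the spliced form, so the division of shared bases is an estimate by StringTie.

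CXCR2, a receptor of CXCL8 on chromosome 2 (218125289 to 218137251, plus strand), stood at 27.5 in HL60 (26.2 to 28.9) and 14.7 in THP-1 (13.7 to 15.7), and listed at 0 in the other libraries. HL60 was 1.87-fold above THP-1 (1.72 to 2.04). On this scale per length, nearly all of the difference lay in short transcripts, where the division between overlapping transcripts is an estimate by StringTie. The main transcript ENST00000318507 was at a scaled TPM of 15.0 in HL60 and 14.7 in THP-1, where it held all CXCR2 bases. In HL60, ENST00000453237 and ENST00000449014 added 6.16 and 6.35 with 10.1% and 3.37% of the bases, since TPM divides by transcript length. Not divided by length, as scaled aligned bases in 1000000 of the library, CXCR2 was at 48.8 in HL60 and 38.7 in THP-1. Coverage, not scaled between libraries, was 29.1 in HL60 and 1.88 in THP-1 on the main transcript's second exon of 52 untranslated bases. Exon 3, which holds the coding region, was at 10.6 and 7.33. CXCR1, the other CXCL8 receptor and a close neighbour in sequence, was listed at 0 in every library.

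CCR1, the receptor of CCL3 and CCL5 on chromosome 3 (46201711 to 46208313, minus strand), stood at 26.4 in THP-1 (25 to 27.8) and at 6.72 in HL60 (6.18 to 7.30), and listed at 0 in K562 and the MOLM13-labelled library. THP-1 was 3.92-fold above HL60 (3.56 to 4.32), a log2 distance of 1.83 that falls just short of the size rule. The files list 1 transcript for CCR1. Its coding second exon had a coverage, not scaled between libraries, of 15.3 in THP-1 and 6.17 in HL60.

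CXCR4, CXCR2 and CCR1 were each at least 2 log2 units higher in THP-1 and in HL60 than in both other libraries. These are 3 of 6 members with at least 600 aligned bases in both lines, and 3.59% of 9620 protein-coding genes met the same rule, which was chosen after the values were seen. Without the MOLM13-labelled library the same 3 members met it over K562, as the rule requires, with 8.77% of genes. With a pseudocount of 5, CXCR4 alone met it. The monocyte and granule markers were higher in the same lines, as given earlier, and their part in this result was not tested.

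CCR7, the lymph node homing receptor on chromosome 17 (40553769 to 40565472, minus strand), had the opposite order. It was at 1.26 in the MOLM13-labelled library (0.853 to 1.79) and 1.05 in K562 (0.725 to 1.47), and listed at 0 in HL60 and THP-1. The values rest on 30.6 and 33.8 footprint equivalents and did not differ beyond counting error (ratio 1.2, 0.737 to 1.96). Coverage lay wholly on the last of its 3 exons, at 0.432 and 0.478 per base, and the first 2 exons were listed at 0 in every library. No difference in CCR7 passed the size rule in any pair.

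The 6 pairs of libraries were compared by the same size rule. HL60 was called over K562 for 5 of its 6 tested members (12.1% of genes) and over the MOLM13-labelled library for the same 5 (8.9% of genes), CCL2, CXCL8, CCR1, CXCR2 and CXCR4. THP-1 was called over K562 for 4 of 7 (14.8% of genes) and over the MOLM13-labelled library for 4 of 7 (11.5%), which were CCR1, CCR2, CXCR2 and CXCR4 in both. Over HL60, THP-1 was called for CCR2 alone (8.24% of genes). No member was called between K562 and the MOLM13-labelled library in either direction, where 6.61% and 11.0% of genes were called. K562 was called over THP-1 or HL60 for none of its 3 tested members (7.93% and 11.0% of genes), and the MOLM13-labelled library for none of 3 (8.65% and 12.1%). No member was high in K562 (2.18% of genes) or in the MOLM13-labelled library (2.3%). Only 2 members, CCL2 and CXCR4, had the bases needed for a low call, and neither was low in K562 (5.05% of genes), THP-1 (0.673%), the MOLM13-labelled library (2.16%) or HL60 (1.97%). Without the MOLM13-labelled library, 6 members could be called low in K562, and CCR1, CXCR2 and CXCR4 were (8.77% of genes). Of the 2 members with a low call possible in THP-1 (0.941% of genes) or HL60 (2.67%), neither was low there without that library. CCR2 stayed high in THP-1 (4.82% of genes) and CCL2 and CXCL8 in HL60 (2.49%), which leaving out a library cannot change. No member was high in K562 (5.51%). These pairs share libraries, so their counts are not independent.

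**Figure D4:**
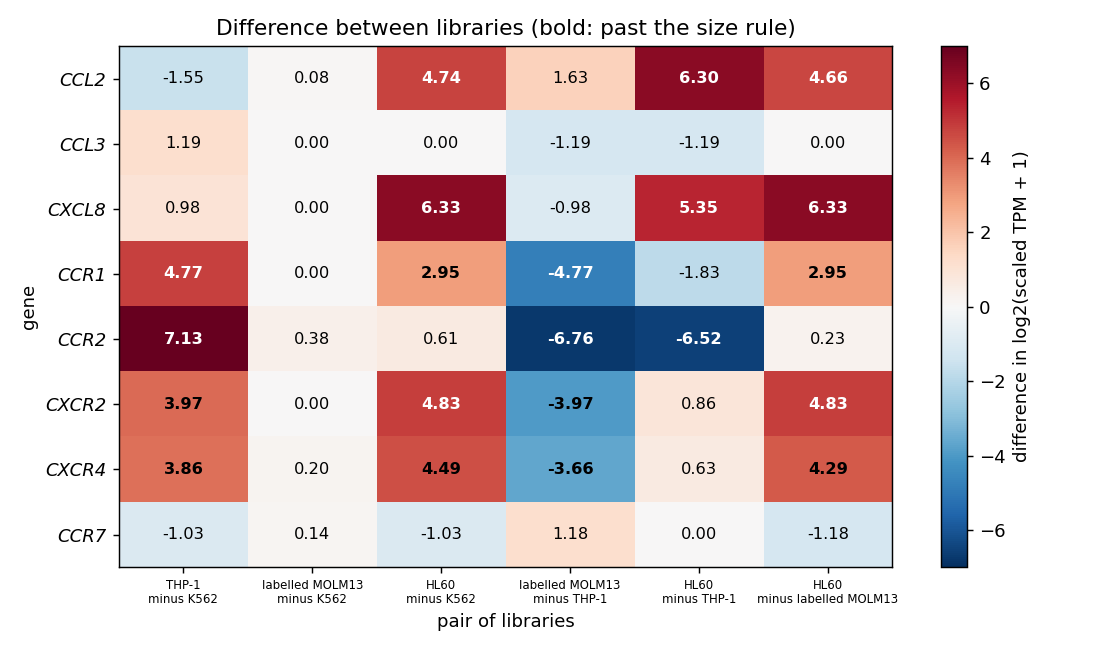
Difference in log2(scaled TPM + 1) of each member for the 6 pairs of libraries, with bold print where the size rule was passed. The column of K562 and the MOLM13-labelled library holds no bold value, and its differences run from 0.00 to 0.38.

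Of 43 other chemokine genes in the files, 10 had at least 600 aligned bases in any line. Of those with these bases in the line itself, 1 of 6 was high in THP-1 (3.64% of genes) and 1 of 7 in HL60 (1.68%). CCL22, a ligand of CCR4, was high in THP-1 at 3.40 and listed at 0 elsewhere. PPBP, the precursor of a platelet CXC chemokine, was high in HL60 at 5.85 and listed at 0 elsewhere. Chosen after their values were seen, CCL5, a ligand of CCR1, reached 94.3 in THP-1 and 86.0 in HL60; CCL23, a ligand of CCR1, reached 50.7 and 16.4. Both were listed at 0 in K562 and the MOLM13-labelled library. CXCL5, a ligand of CXCR2, showed the opposite pattern, at 12.3 in K562 and 10.5 in the MOLM13-labelled library and listed at 0 in HL60 and THP-1. CXCL12, the ligand of CXCR4, was listed at 0 in every library. CCL4, a neighbour of CCL3, was at 2.30 in HL60 and at most 0.167 elsewhere. Without the MOLM13-labelled library, CCL22 and PPBP kept their calls, as the rule requires. CCL28 was then also high in THP-1 (4.82% of genes), CXCL5 was high in K562 (5.51%), and CCL5 and CCL23 were low in K562 (8.77%).

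Among 17 other chemokine receptors, 6 reached 600 aligned bases in any line, at levels of at most 14.9. CX3CR1, the fractalkine receptor of monocytes, was high in THP-1 at 14.9, against 0.340 in HL60, and was listed at 0 in the other libraries. It was 1 of 4 with the bases for that call, which 3.64% of genes met. None was high in HL60. CX3CR1 kept its call without the MOLM13-labelled library, as the rule requires, and 4.82% of genes were then high in THP-1.

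**Figure D5:**
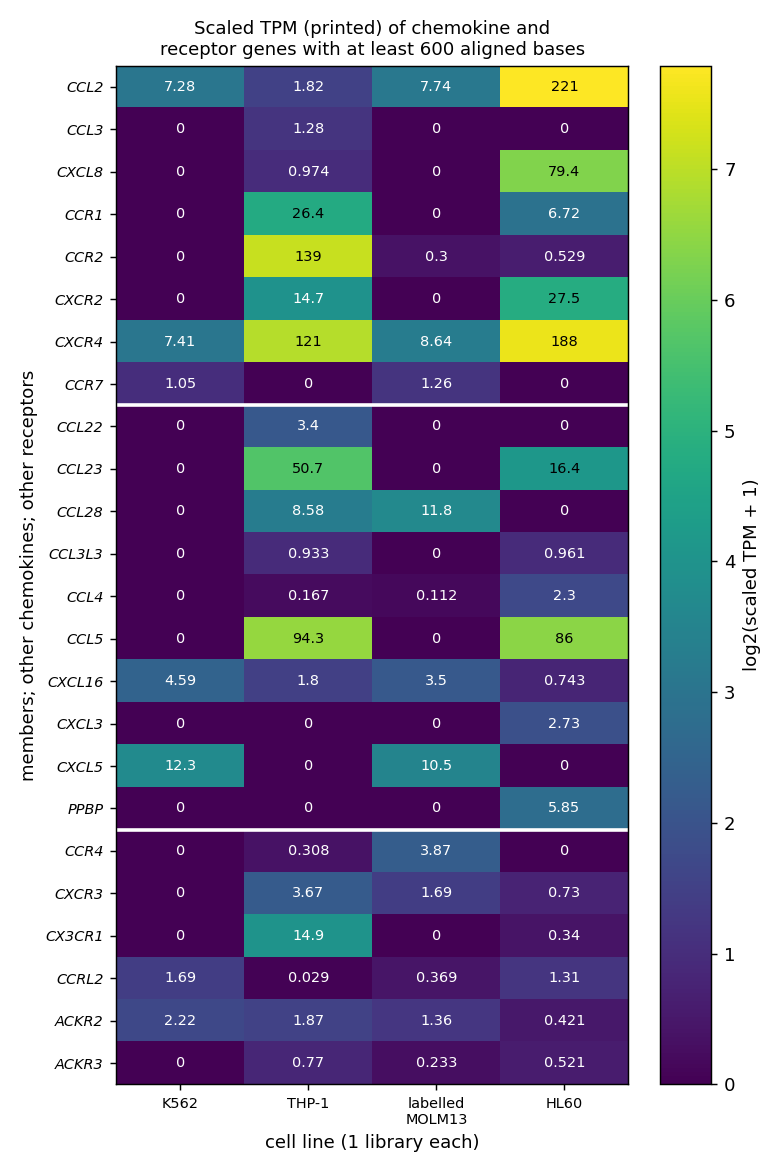
Scaled TPM, printed in each cell, of the members and of the other chemokine and receptor genes with at least 600 aligned bases in any of the 4 lines, coloured by log2(scaled TPM + 1). CCL5 stands at 94.3 and 86.0 in THP-1 and HL60, and CXCL5 at 12.3 and 10.5 in K562 and the MOLM13-labelled library.

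Receptors for other attractants were high in HL60 more often than in any other line. Of 14 such genes, 10 had at least 600 aligned bases there, and 4 of them were high in HL60, where 1.68% of all genes were. FPR2, a formyl peptide receptor, was at 92.4 in HL60 and 1.65 in THP-1, and FPR1, its relative, at 7.67 and 0.940. S1PR4, a sphingosine phosphate receptor of blood cells, was at 30.5 in HL60 and at most 2.58 elsewhere. C3AR1, the receptor of complement fragment C3a, was at 27.1 in HL60, 5.19 in the MOLM13-labelled library, 2.51 in K562 and 1.12 in THP-1. None of the 14 was high in another line. Without the MOLM13-labelled library the same 4 were high in HL60 (2.49% of genes), as the rule requires, and no other gene of the list was added there.

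Genes that carry the signal from these receptors were low in K562 in several cases. Of 14 signalling genes with at least 600 aligned bases in the other 3 lines, 5 were low in K562, where 5.05% of all genes were. RAC2, the Rac GTPase of blood cells, was at 26.2 in K562 and at 297, 161 and 575 in THP-1, the MOLM13-labelled library and HL60. DOCK2, which activates Rac, was at 7.24 against 63.8 to 76.6, and its partner ELMO1 at 1.2 against 16.9 to 56.4. VAV1, another Rac activator, and PLCB2, a phospholipase, were listed at 0 in K562 and at 18.4 to 24.8 and 12.7 to 17.9 elsewhere. RAC2, DOCK2, FGR, GNAI3, GNB1 and ITCH are named as chosen after their values were seen. The G protein subunits GNAI3 and GNB1 spanned 22.4 to 31.1 and 42.3 to 68.3 over the 4 lines. GNG2, a G protein gamma subunit, was high in the MOLM13-labelled library at 23.9 (2.3% of genes). FGR, a Src family kinase, was high in HL60 at 3.16 (1.68%), and LYN, another such kinase, was listed at 0 in HL60 and low there (1.97%). In the comparison without the MOLM13-labelled library, 6 of 15 signalling genes were low in K562, the same 5 with PREX1, against 8.77% of all genes.

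Of 12 genes for receptor shut-off and trafficking with at least 600 aligned bases in the other 3 lines, 3 were low in K562, where 5.05% of all genes were. GRK2 and GRK6, kinases that mark active receptors for arrestin binding, were at 3.24 and listed at 0 in K562, and at 16.5 to 67.7 and 4.09 to 18.4 elsewhere. RGS18, which speeds the turn-off of G proteins in blood cells, was listed at 0 in K562 and at 16.9 to 32.1 elsewhere. RGS16, a relative, was high in HL60 at 3.97 (1.68% of genes). With the MOLM13-labelled library left out, RGS14 was also low in K562 (4 of 12, against 8.77% of genes) and ARRB1 also high in HL60 (2 of 15, against 2.49%). ITCH, a ubiquitin ligase of CXCR4, was at 43.7 in K562, 26.1 in the MOLM13-labelled library, 10.3 in THP-1 and 8.85 in HL60. It was called high or low in no line, and a link to the level of CXCR4 was not tested.

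Genes with the pattern over the 4 lines most like a member were found by Euclidean distance in log2(scaled TPM + 1) over 4 values, a description with 1 library per value. The nearest to CXCL8 were FPR2 (distance 0.485), CLEC5A, a myeloid lectin receptor (0.492), and COL17A1 (0.613). Nearest to CCR2 were AP1S3 (0.411), the metallothionein MT1E (0.721) and NDUFC2-KCTD14 (0.723). CXCR2 was closest to PSTPIP1, an actin adaptor of leukocytes (0.214), DNAJC19 (0.241) and CAMK1 (0.242), and CCR1 to VLDLR (0.181), AC010522.1 (0.387) and AC098484.3 (0.415). CXCR4 and CCL2 had no gene as near: SQOR (1.02), CDC42 (1.28) and TGOLN2 (1.32) were nearest to CXCR4, and TSPAN14 (1.32), CHD4 (2.13) and RNF44 (2.48) to CCL2. However, CXCL8, CCR2, CXCR2 and CCR1 were listed at 0 in K562, as were all their nearest genes. A shared 0 adds nothing to the distance, and CXCR4 and CCL2 were above 0 in every library. CCL3 and CCR7 stayed under the scaled TPM of 5 set for this search.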

How the data were processed

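Per the file headers, the authors ran StringTie 2.1.5 per library on read 1 alignments against GENCODE release 37, limited to annotated transcripts and with no strand option. Per the submitters' processing notes, Trim Galore 0.6.6, Bowtie2 2.4.2 and STAR 2.7.8a were also used, on hg38. The deposited values are TPM per transcript, and mean coverage per transcript and exon. Members were taken by symbol and joined by gene ID. TPM was summed per gene and divided by a library factor, the median of the ratios to each gene's geometric mean, from 3751 genes whose TPM was 10 or more everywhere (K562 0.837, THP-1 1.01, the MOLM13-labelled library 1.12, HL60 1.05). Aligned bases are coverage times length. Gene types (58405 genes matched) and coding regions came from GENCODE release 29, matched by ID without version. The background is nuclear protein-coding genes with at least 600 aligned bases in the line called high, in the higher library of a pair, or in the other 3 lines for low calls. Intervals of ratios are normal approximations on the log of footprint equivalents. Call rules were tested on simulated data. The members and gene lists were chosen with earlier results of these data known. All 8 members are named, as are pathway-list genes called high or low (at most 5 a list by distance), members' copies and the 3 nearest genes. Some items are not reported here. Others are named as chosen later or as background. SciPy 1.17.1, pandas 2.3.3 and NumPy 2.4.6 were used under Python 3.11.15, with Matplotlib 3.10.9 for figures and pyarrow 21.0.0 for storage.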

Additional observations from a re-analysis of the deposited data

How the results depend on the processing

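Of recomputed counts of called members whose main value was above 0, 76 kept within 1.5 times that value and 15 moved further, where the cause was not tested unless stated. A pseudocount of 0.1 gave 2 high members in THP-1 in place of 1, 7 in place of 4 between K562 and THP-1, and 8 in place of 4 between THP-1 and the MOLM13-labelled library. With a pseudocount of 5, 1 member in place of 3 was high in both THP-1 and HL60. A log2 difference of 1 gave 3 high members in THP-1, 7 between K562 and THP-1, 7 between THP-1 and the MOLM13-labelled library and 5 in place of 3 between THP-1 and HL60. Counting only members above 0 in every library compared, which removes members by construction, left 0 high in THP-1, 1 in place of 2 in HL60, 1 in both lines, 1 between K562 and THP-1, 2 in place of 5 between K562 and HL60, 2 between THP-1 and the MOLM13-labelled library and 2 in place of 5 between the MOLM13-labelled library and HL60. The calls of CCL2, CXCL8 and CCR2 stood with deposited TPM, TPM rescaled over protein-coding genes and aligned bases not divided by length. They also stood with a pseudocount of 0.1 or 5 and with a log2 difference of 3. Other minimums of aligned bases and leaving out the library labelled MOLM13 could not remove these calls, so those settings are no check of them. The order of lines and pairs by count turned with the threshold and changed with the pseudocount. At a log2 difference of 1, THP-1 had 3 high members and HL60 2. The pairs of THP-1 with K562 and the MOLM13-labelled library then had 7 each, against 6 for those of HL60. At a pseudocount of 0.1, THP-1 and HL60 had 2 high members each. K562 then had 7 members apart from each of these lines, and the MOLM13-labelled library had 8 from THP-1 and 6 from HL60. No distance reversed. No paired analysis was possible because each line has 1 library. CCL3 and CCR7 rest on under 40 footprint equivalents in any line, so differences in them are limited by depth.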

Other observations

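Of 8 genes for proteases that trim chemokines, 6 had at least 600 aligned bases in any line. Of those with the bases for the call, 2 of 6 were high in THP-1 (3.64% of genes) and 1 of 4 was low in K562 (5.05%). CTSG (cathepsin G), a granule protease, was at 3548 in THP-1, 2288 in HL60 and 11.8 in the MOLM13-labelled library, and listed at 0 in K562. ELANE (neutrophil elastase) and PRTN3 (proteinase 3) were high in THP-1 at 1504 and 1088, and at 104 and 161 in HL60. Without the MOLM13-labelled library, CTSG, ELANE, PRTN3 and CTSS were low in K562 (8.77% of genes). CTSB (cathepsin B), a lysosomal protease, had another order, at 59.3 in THP-1, 49.3 in the MOLM13-labelled library, 40.7 in K562 and 12.3 in HL60. MMP9, a secreted metalloprotease, was at 10.0 in HL60 and 2.1 in THP-1, and listed at 0 elsewhere.

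Regulators of inducible chemokine genes followed several patterns. RELA, NFKBIA, MMP9 and CTSB are named here as chosen after their values were seen. The NF-kB subunit RELA was at 24.3 to 35.2 and the inhibitor NFKBIA at 19.1 to 27.2 in the 4 lines. IRF8, a monocyte transcription factor, was high in THP-1 at 558, as was FOS, an AP-1 subunit, at 87.1. These were 2 of 17 regulators with the bases for that call (3.64% of genes). SPI1 (PU.1), a myeloid transcription factor, was at 218 in HL60, 148 in THP-1 and 9.19 in the MOLM13-labelled library, and was low in K562, where it was listed at 0. CEBPA, another such factor, was low in K562 at 0.0259. SPI1 and CEBPA were 2 of 15 regulators with the bases for a low call there (5.05% of genes). Without the MOLM13-labelled library, NFKB2 was also low in K562 (8.77% of genes) and ZFP36L1 high there (5.51%).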
